A study of Mus musculus with 20 samples.

Results

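Carriers of the sinusoidal membrane, the face of the hepatocyte that meets the blood, were examined through 7 genes measured in mouse liver by 18 of the 45037 probe sets of an Affymetrix mouse genome array. The members were Slco1a4, Slco1a1, Slco1b2, Slco2b1, Slco2a1, Slc10a1 and Slc22a7, among 18193 genes that the probe annotation names, and every probe set whose annotated symbol was exactly one of these names was taken. Slco1b2 had 5 probe sets, Slco2a1 had 4, Slco2b1 had 3, Slco1a1 and Slc10a1 had 2 each, and Slco1a4 and Slc22a7 had 1 each. The label calls them sinusoidal uptake transporters, and RNA of whole liver cannot check the site of a protein in the membrane.

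The study asked which liver responses to CMP013, an inhibitor of the protease BACE1, need the pregnane X receptor (PXR), a nuclear receptor that senses foreign compounds. The 4 groups of 5 male mice were WT mice given CMP013, WT mice given vehicle, PXR-KO mice given CMP013 and PXR-KO mice given vehicle. CMP013 was dosed at 150 mg/kg by oral gavage every 24 h, the mice were 9 weeks old at the start, and liver was taken at 96 h after a fast of 3 to 4 h. WT mice were of the C57BL/6 strain, whereas the PXR-KO mice are given as C57BL/6NTac in one label field and as C57BL/6 in another, so that genotype and background cannot be told apart. All groups received the same vehicle, each array held the RNA of 1 animal, and the sources used here do not say whether animals shared a litter or cage.

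Each deposited value was the log10 ratio of an animal to the vehicle mean of its own genotype, taken over 5 animals, and was converted to log2. A log2 ratio of 0 is therefore the vehicle mean of that genotype, a value of 1 is a doubling, and no level can be compared between genes or between untreated genotypes. The medians of the 20 arrays lay between −0.027 and 0.012 log2 units, and no value of a member stood at the limit of the deposited scale. The vehicle arrays with the lowest medians were WT vehicle 3 and 4 and PXR-KO vehicle 2 and 4 (−0.026 to −0.020, against −0.010 to 0.012 in the other vehicle arrays). Calls that their omission changed are given with and without them. CMP013 arrays with medians about as low, WT CMP013 3 and 5 (both −0.027) and PXR-KO CMP013 3 (−0.023), were kept. The omission also lowers the number of animals tested, so a lost call does not by itself mark these animals as unusual. Means are given ± SD over 5 animals and fold changes with their SE, and a probe set was called when the adjusted p of limma over all probe sets was under 0.05.

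Uptake at the sinusoidal membrane is the entry step for bile acids, bilirubin conjugates, steroid sulfates, thyroid hormones and many drugs. Members of the Slco family encode organic anion transporting polypeptides, which work without sodium, Slc10a1 encodes NTCP, which takes up conjugated bile acids together with sodium, and Slc22a7 encodes the organic anion transporter OAT2. In rodent liver Slco1a4 is a known target of PXR, and Slco1a1 is known for higher expression in males, which depends on the pulsed secretion of growth hormone.

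Slco1a4, Slco1a1 and Slco1b2 lie in one cluster on chromosome 6, and their promoter windows are shown because these 3 neighbours differed in direction and in size of response. Each window runs from 250 bases before the RefSeq start to 50 bases from it (GRCm38.p6), 5′ to 3′ on the strand of the gene. Capitals mark the nuclear receptor half-sites AGGTCA and AGTTCA, the HNF1 half-site GTTAAT and the STAT5 motif TTCNNNGAA, found on either strand.
Slco1a4, chr6:141856171-141856470, minus strand: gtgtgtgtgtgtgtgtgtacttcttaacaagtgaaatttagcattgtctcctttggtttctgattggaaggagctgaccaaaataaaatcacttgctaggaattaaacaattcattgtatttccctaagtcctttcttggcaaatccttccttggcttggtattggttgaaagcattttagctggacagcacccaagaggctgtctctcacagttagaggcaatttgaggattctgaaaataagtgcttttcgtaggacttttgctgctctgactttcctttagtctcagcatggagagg
Slco1a1, chr6:141946913-141947212, minus strand: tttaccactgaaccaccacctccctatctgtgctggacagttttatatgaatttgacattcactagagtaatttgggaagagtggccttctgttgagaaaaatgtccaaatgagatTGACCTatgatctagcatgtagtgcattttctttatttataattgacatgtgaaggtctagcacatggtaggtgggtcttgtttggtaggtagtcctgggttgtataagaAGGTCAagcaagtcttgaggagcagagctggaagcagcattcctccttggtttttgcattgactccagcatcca
Slco1b2, chr6:141629268-141629567, plus strand: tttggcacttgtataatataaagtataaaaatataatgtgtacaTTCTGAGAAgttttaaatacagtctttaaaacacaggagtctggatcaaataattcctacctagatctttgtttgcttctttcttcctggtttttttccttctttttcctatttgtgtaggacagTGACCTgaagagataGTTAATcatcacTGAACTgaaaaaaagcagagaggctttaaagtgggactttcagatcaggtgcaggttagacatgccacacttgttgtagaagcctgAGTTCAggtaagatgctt

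The window of Slco1a4 held none of the 4 motifs. Bases outside the windows were not searched, so this does not show that the gene lacks such sites. That of Slco1a1 held 2 copies of AGGTCA, 1 on each strand, and that of Slco1b2 held 1 AGGTCA, 2 AGTTCA, 1 GTTAAT and 1 TTCNNNGAA, with no overlap between them. Among all 32851 RefSeq promoter windows of this length, 16.3% held AGGTCA, 14.0% AGTTCA, 7.1% GTTAAT and 8.3% TTCNNNGAA. RefSeq windows were matched for 6 of the 7 members, Slc22a7 being the exception, and a match of letters is a description and not a binding site. Among the windows not shown, those of Slco2b1 held AGTTCA and TTCNNNGAA and those of Slc10a1 held AGGTCA and TTCNNNGAA. That of Slco2a1 held none of the motifs.

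With CMP013 Slco1a4 was higher and some other carriers were lower, while Slco2a1 and Slc10a1 were called in neither genotype. In WT mice 8 of the 18 probe sets were called, 1 higher (Slco1a4) and 7 lower (Slco1a1, Slco1b2, Slco2b1 and Slc22a7), against a background of 14.4% of all probe sets called, 7.67% higher and 6.72% lower. In PXR-KO mice 4 were called, 1 higher (Slco1a4) and 3 lower (Slco1a1 and Slc22a7), against a background of 3.65% called, 2.12% higher and 1.54% lower. The 2 responses differed at none of the 18 probe sets by the limma interaction test, where 11.0% of all probe sets were called, 5.47% with a higher and 5.49% with a lower response in WT than in PXR-KO mice. Without adjustment this limma test gave 3 member probe sets with a p under 0.05, and 11312 of all probe sets. Without the 4 vehicle animals named above, 4 probe sets were called in WT mice (of Slco1a4, Slco1b2 and Slco2b1), and 1 in PXR-KO mice (Slco1a4), while the calls over all probe sets were 3308 in WT and 363 in PXR-KO mice, against 6480 and 1645 with every animal. Quantile normalization of the ratios left 2 calls in WT mice (Slco1a4 and 1454777_at of Slco2b1) and 3 in PXR-KO mice (Slco1a4 and both Slco1a1 probe sets), with 1752 and 498 of all probe sets called. It gives all arrays the same spread, whereas the SD of the log2 ratios was 0.587 to 0.704 in WT CMP013 and 0.334 to 0.395 in WT vehicle arrays. In PXR-KO mice the SD was 0.467 to 0.568 in CMP013 and 0.340 to 0.463 in vehicle arrays.

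In WT mice the median log2 fold change of the 18 probe sets was −0.25, beside −0.01 over all probe sets, and in PXR-KO mice it was −0.19, beside 0.01. The fold change was below 0 for 14 of the 18 in WT mice, where 51.3% of all probe sets were below 0, and for 16 of the 18 in PXR-KO mice, where 48.8% were. CMP013 and vehicle animals did not overlap for 7 of the 18 in WT and 5 of the 18 in PXR-KO mice, against 14.7% and 7.57% of all probe sets. Probe sets of 1 gene share a transcript and are not independent measurements.

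**Figure D1:**
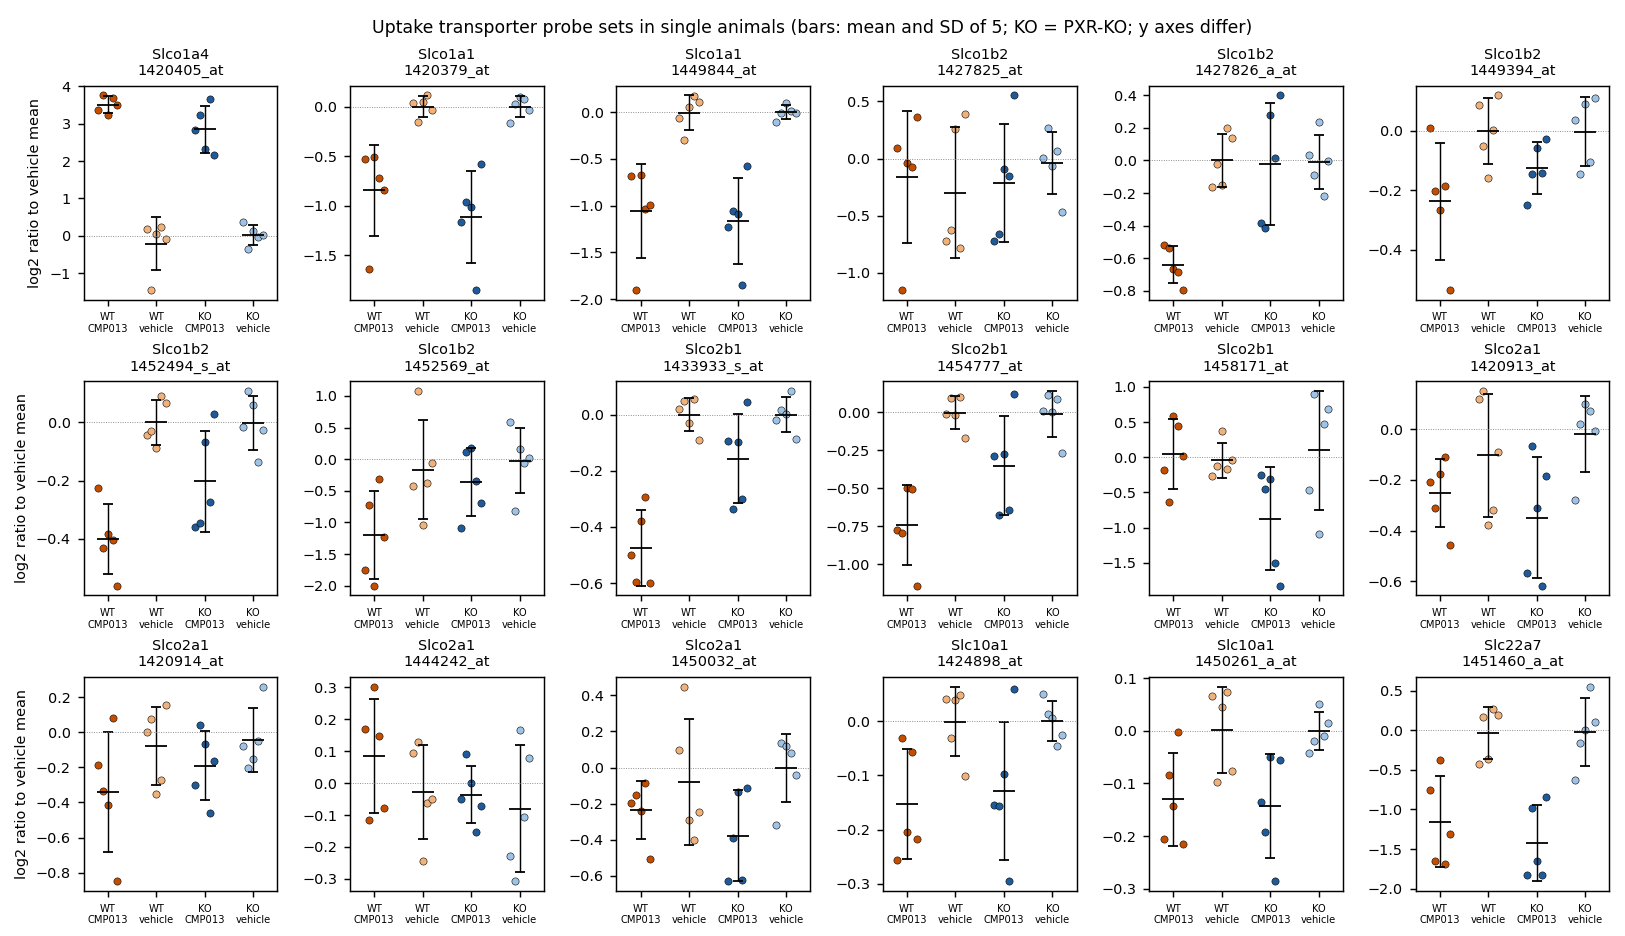
Log2 ratio to the vehicle mean of the same genotype (y axis, scales differ between panels) for each of the 18 member probe sets in the 4 groups (x axis), 1 point an animal, with bars for the mean and SD of 5 animals. Slco1a4 lay above its vehicle group in every CMP013 animal of either genotype, and both Slco1a1 probe sets lay below it.

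Slco1a4 encodes Oatp1a4, a carrier of bile acids, steroid conjugates and digoxin. Its log2 ratios (1420405_at) in WT CMP013 mice were 3.36, 3.76, 3.23, 3.69 and 3.51, and in WT vehicle mice 0.18, −1.45, 0.05, 0.25 and −0.08. In PXR-KO CMP013 mice they were 2.84, 3.23, 2.33, 3.67 and 2.16, and in PXR-KO vehicle mice 0.37, −0.35, 0.13, −0.04 and 0.02. The CMP013 animals were far above the vehicle animals in each genotype and lay closer together in WT than in PXR-KO mice.

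As ratios, Slco1a4 averaged 11.5 ± 1.74 times the vehicle mean in WT CMP013 mice and 0.934 ± 0.330 in WT vehicle mice. It averaged 7.76 ± 3.38 times the vehicle mean in PXR-KO CMP013 mice and 1.03 ± 0.185 in PXR-KO vehicle mice. On the log2 scale Slco1a4 rose by 3.72 ± 0.30 (SE) in WT mice, which is 13.2-fold (95% CI 8.28 to 21.0, limma adjusted p = 7.66e-05). It rose by 2.82 ± 0.28 in PXR-KO mice, or 7.05-fold (CI 4.61 to 10.8, limma adjusted p = 0.00142), and this call was lost with the trend and robust options of limma (adjusted p = 0.0536).

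Among all probe sets ordered by fold change from the highest down, Slco1a4 stood at place 15 in WT and at place 18 in PXR-KO mice. The response in WT was greater than that in PXR-KO mice by 0.90 ± 0.43 log2 units, with an interval of 0.0070 to 1.80, and this difference did not pass the adjustment (limma adjusted p = 0.195). WT vehicle 2 stood well below the other vehicle animals for this gene. Without it, the rise in WT mice was 3.41 log2 units (adjusted p = 4.37e-06) and the difference between genotypes was 0.59 (adjusted p = 0.290).

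Slco1a1 encodes Oatp1a1, a carrier of sulfated steroids and bile acids, and its gene is the next one to Slco1a4 on chromosome 6 in the RefSeq annotation. By 1449844_at, log2 ratios in WT CMP013 mice were −0.68, −1.90, −0.67, −1.03 and −0.99, and in WT vehicle mice −0.06, −0.30, 0.06, 0.17 and 0.11. In PXR-KO CMP013 mice they were −1.23, −1.06, −1.09, −1.85 and −0.58, and in PXR-KO vehicle mice −0.11, −0.0037, 0.10, 0.02 and −0.01. No CMP013 animal reached the vehicle range, and the lowest animals were WT CMP013 2 and PXR-KO CMP013 4.

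The level of Slco1a1 by this probe set was 0.502 ± 0.146 of the vehicle mean in WT CMP013 mice and 1.00 ± 0.122 in WT vehicle mice. In PXR-KO CMP013 mice it was 0.464 ± 0.140 and in PXR-KO vehicle mice 1.00 ± 0.0520. Slco1a1 thus fell by 1.05 ± 0.22 log2 units in WT (2.07-fold lower, limma adjusted p = 0.0117) and fell by 1.16 ± 0.20 in PXR-KO mice (2.24-fold lower, limma adjusted p = 0.0137). By 1420379_at it fell by 0.84 ± 0.20 in WT (1.80-fold lower, adjusted p = 0.0191), while PXR-KO animals showed a log2 fold change of −1.11 ± 0.20 (2.16-fold lower, adjusted p = 0.0177).

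The WT response of Slco1a1 was 0.11 log2 units above the PXR-KO response by 1449844_at (interval −0.53 to 0.75, limma adjusted p = 0.862) and 0.27 above it by 1420379_at (interval −0.34 to 0.88, adjusted p = 0.615). A difference of up to 0.88 log2 units lies within these intervals. Without the 2 WT vehicle animals named above, the adjusted p was 0.0787 and 0.103 for 1449844_at and 1420379_at in WT mice, and without the 2 PXR-KO vehicle animals 0.0854 and 0.106 in PXR-KO mice, with log2 fold changes of −0.97, −0.79, −1.16 and −1.08 in that order.

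**Figure D2:**
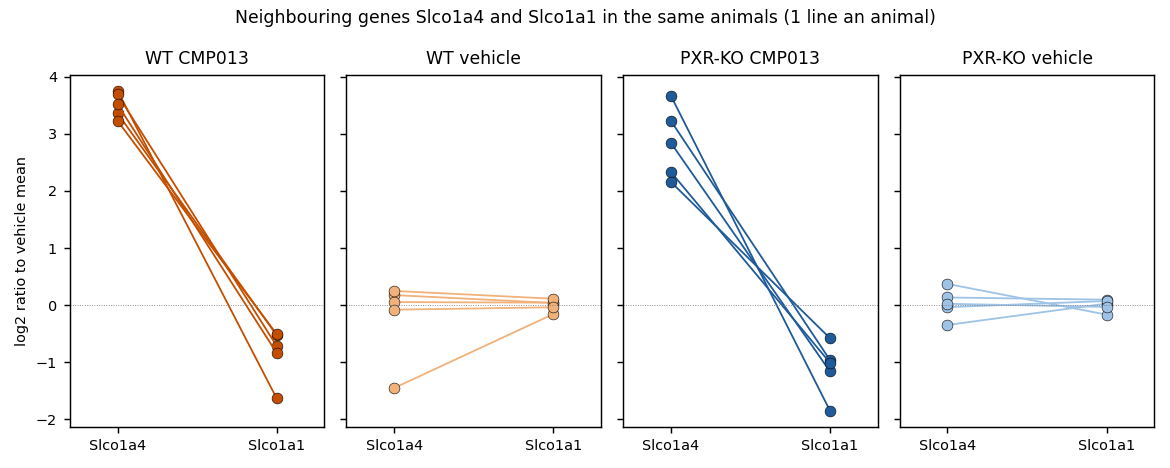
Log2 ratio to the vehicle mean (y axis) of Slco1a4 (1420405_at) and Slco1a1 (1420379_at) in each animal, 1 line an animal and 1 panel a group. In all CMP013 animals of either genotype the line falls steeply from Slco1a4 to Slco1a1, while the vehicle lines stay near 0 apart from WT vehicle 2, whose Slco1a4 value is −1.45.

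The opposite course of these neighbouring genes was seen within every treated animal. The log2 ratio of Slco1a4 minus that of Slco1a1 (1420379_at) ranged from 3.74 to 5.39 in WT CMP013 mice (mean 4.35 ± 0.65) and from −1.29 to 0.14 in WT vehicle mice (mean −0.21 ± 0.61). It ranged from 2.74 to 5.52 in PXR-KO CMP013 mice (mean 3.96 ± 1.04) and from −0.37 to 0.54 in PXR-KO vehicle mice (mean 0.03 ± 0.33). PXR-KO CMP013 4 had the largest gap of its group, with the highest Slco1a4 and the lowest Slco1a1 ratio of the 5.

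In the order of the RefSeq annotation the cluster runs Slco1c1, Slco1b2, Gm5724, Slco1a4, Slco1a1, Gm6614, Slco1a6 and Slco1a5, with Pde3a and Aebp2 before it. Of the 8 measured genes of this stretch, by 1 probe set each, Slco1a4 and Slco1a1 alone were called within a genotype, and other probe sets of Slco1b2 were called as given below. Slco1a6, which encodes another carrier of the family, had a log2 fold change of 0.70 ± 0.30 in WT (limma adjusted p = 0.170), with −0.94 ± 0.37 in PXR-KO mice (adjusted p = 0.191). The 2 responses of Slco1a6 differed by 1.64 ± 0.50 (limma adjusted p = 0.0428). Slco1a5, a further member of the family, gave 0.18 ± 0.12 in WT mice and −0.07 ± 0.16 in PXR-KO mice, and Slco1c1, which carries thyroxine in brain capillaries, gave 0.65 ± 0.66 and 0.05 ± 0.11. Members of this family resemble each other in sequence, and whether single probes also bind a neighbour's transcript was not tested.

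**Figure D3:**
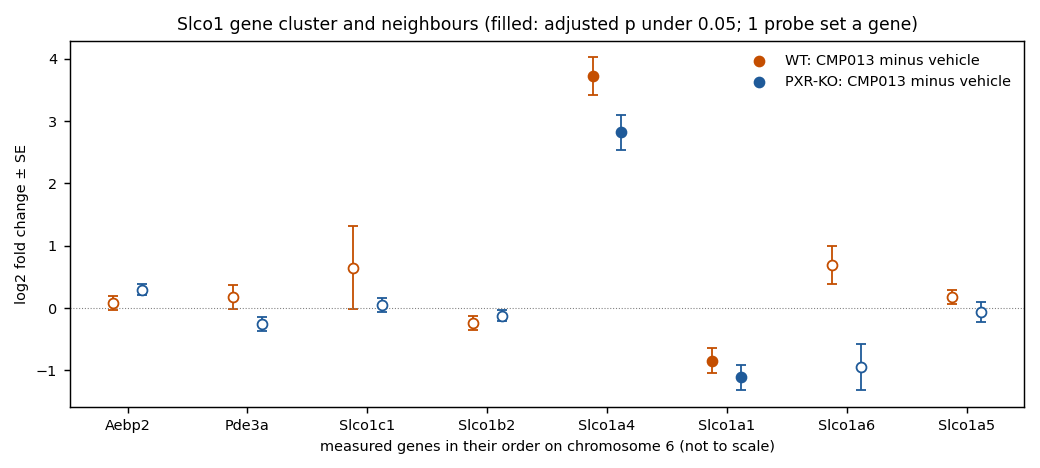
Log2 fold change of CMP013 against vehicle with its SE (y axis) in WT mice (orange) and PXR-KO mice (blue) for the 8 measured genes of the stretch in chromosome order (x axis, not to scale), by 1 probe set a gene. Filled points passed an adjusted p of 0.05, which were those of Slco1a4 and Slco1a1 in either genotype, while Slco1a6 lay above 0 in WT and below 0 in PXR-KO mice.

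Slco1b2 encodes Oatp1b2, the carrier of bilirubin conjugates and of liver toxins such as phalloidin. Its 5 probe sets did not give 1 answer, and 2 of them were called, in WT mice alone. By 1427826_a_at log2 ratios were −0.52, −0.53, −0.66, −0.69 and −0.80 in WT CMP013 mice, and −0.16, −0.02, −0.15, 0.20 and 0.14 in WT vehicle mice. They were −0.39, −0.41, 0.28, 0.01 and 0.40 in PXR-KO CMP013 mice, and 0.04, −0.09, 0.23, −0.22 and −0.0042 in PXR-KO vehicle mice. The WT groups were apart, and the PXR-KO CMP013 animals lay on either side of their vehicle group.

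By this probe set Slco1b2 fell by 0.64 ± 0.10 log2 units in WT mice (1.56-fold lower, limma adjusted p = 0.00299), and its log2 fold change in PXR-KO mice was −0.01 ± 0.17 (interval −0.40 to 0.37, adjusted p = 0.976). The difference between the responses was −0.63 ± 0.20 and missed the threshold (limma adjusted p = 0.0560). It passed when PXR-KO CMP013 1, PXR-KO CMP013 2 or PXR-KO vehicle 3 was left out, and the adjusted p over all single omissions ranged from 0.0256 to 0.0996.

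The probe set 1452494_s_at, which by its mark may detect several transcripts, fell by 0.40 ± 0.087 in WT mice (limma adjusted p = 0.0126), and gave −0.20 ± 0.10 in PXR-KO mice (adjusted p = 0.309). Its difference was −0.20 (interval −0.46 to 0.06, adjusted p = 0.341), and without the 2 WT vehicle animals the adjusted p of the fall in WT mice was 0.0651. The least variable unmarked probe set, 1449394_at, gave −0.24 ± 0.11 in WT (adjusted p = 0.202), with −0.12 ± 0.088 in PXR-KO mice (adjusted p = 0.475). The other probe sets were noisy: 1452569_at gave −1.04 ± 0.42 in WT mice (adjusted p = 0.141) and 1427825_at gave 0.13 ± 0.33 (adjusted p = 0.843). Their SD within the vehicle groups was 0.659 and 0.445 log2 units, against a median of 0.277 over all probe sets.

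Slco2b1 encodes Oatp2b1, a carrier of steroid sulfates that is also found in intestine. By 1454777_at log2 ratios were −0.77, −0.80, −0.50, −0.51 and −1.14 in WT CMP013 mice, and −0.02, 0.09, −0.02, 0.10 and −0.17 in WT vehicle mice. They were −0.29, −0.68, −0.27, −0.65 and 0.12 in PXR-KO CMP013 mice, and 0.01, 0.11, −0.00020, 0.09 and −0.27 in PXR-KO vehicle mice. The WT groups were apart, with WT CMP013 5 the lowest animal, and in PXR-KO mice the groups overlapped through PXR-KO CMP013 5 and PXR-KO vehicle 5.

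Slco2b1 fell by 0.74 ± 0.13 log2 units in WT mice by this probe set (1.67-fold lower, limma adjusted p = 0.00481), and kept this call in each of the 9 alternative settings and with any 1 animal left out. The probe set 1433933_s_at fell by 0.47 ± 0.088 (limma adjusted p = 0.00611). In PXR-KO mice the values were −0.34 ± 0.16 (adjusted p = 0.261) and −0.16 ± 0.095 (adjusted p = 0.389). The responses differed by −0.40 (interval −0.83 to 0.03, adjusted p = 0.235) and −0.32 (interval −0.57 to −0.07, adjusted p = 0.0965), so a call in WT mice alone was not shown to be a difference between genotypes.

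The remaining Slco2b1 probe set, 1458171_at, was variable. Its log2 fold change was 0.09 ± 0.23 in WT (adjusted p = 0.846), with −0.97 ± 0.45 in PXR-KO mice (adjusted p = 0.262), where CMP013 animals spanned −1.82 to −0.26 and vehicle animals −1.09 to 0.89. Its vehicle SD of 0.621 log2 units compares with 0.0612 for 1433933_s_at of the same gene.

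Slc22a7 encodes OAT2, which carries small organic anions and, in human cells, cyclic GMP. Log2 ratios (1451460_a_at) were −0.75, −1.65, −0.38, −1.69 and −1.32 in WT CMP013 mice, and −0.43, 0.16, −0.36, 0.27 and 0.19 in WT vehicle mice. They were −1.83, −0.98, −1.65, −1.83 and −0.84 in PXR-KO CMP013 mice, and −0.63, −0.16, 0.01, 0.55 and 0.10 in PXR-KO vehicle mice. WT CMP013 3 entered the range of the WT vehicle animals, and the PXR-KO groups were apart.

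Relative to the vehicle mean Slc22a7 averaged 0.479 ± 0.199 in WT CMP013 mice and 0.996 ± 0.219 in WT vehicle mice, and 0.390 ± 0.133 in PXR-KO CMP013 mice and 1.02 ± 0.300 in PXR-KO vehicle mice. It fell by 1.12 ± 0.27 log2 units in WT (2.18-fold lower, limma adjusted p = 0.0219) and fell by 1.40 ± 0.26 in PXR-KO mice (2.64-fold lower, limma adjusted p = 0.0215). The unadjusted two-sided exact permutation p, which cannot go below 0.00794 with 5 animals against 5, was 0.0159 in WT mice and 0.00794 in PXR-KO mice. The WT response was 0.28 log2 units above the PXR-KO response (interval −0.55 to 1.11, adjusted p = 0.713).

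All 5 CMP013 animals of each genotype were below the vehicle mean for Slc22a7, and its adjusted p lay near the threshold. The call in WT mice was lost without WT CMP013 2, WT vehicle 4 or WT vehicle 5 (adjusted p up to 0.0531). That in PXR-KO mice was lost without PXR-KO CMP013 1, PXR-KO CMP013 4, PXR-KO vehicle 3 or PXR-KO vehicle 5 (adjusted p up to 0.0629). The fold change without any 1 animal stayed between −1.32 and −0.99 in WT mice, and between −1.55 and −1.26 in PXR-KO mice. Without the vehicle animals of low array median the adjusted p was 0.0827 for WT and 0.106 for PXR-KO mice.

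Slc10a1, the bile acid carrier NTCP, had small fold changes that were measured tightly. By 1450261_a_at log2 ratios were −0.20, −0.08, −0.14, −0.0022 and −0.21 in WT CMP013 mice, and 0.07, −0.10, 0.04, 0.07 and −0.08 in WT vehicle mice. They were −0.14, −0.19, −0.05, −0.29 and −0.06 in PXR-KO CMP013 mice, and −0.04, −0.02, 0.05, −0.01 and 0.02 in PXR-KO vehicle mice. The WT groups overlapped, and the PXR-KO groups were just apart.

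The log2 fold change of Slc10a1 by this probe set was −0.13 ± 0.081 in WT (interval −0.31 to 0.05, limma adjusted p = 0.335), with −0.14 ± 0.079 in PXR-KO mice (interval −0.32 to 0.03, adjusted p = 0.345, exact permutation p = 0.00794). By 1424898_at it was −0.15 ± 0.081 in WT (adjusted p = 0.261), with −0.13 ± 0.085 in PXR-KO mice (adjusted p = 0.433). The vehicle SDs of 0.0631 and 0.0528 log2 units were smaller than those of 97.8% and 98.9% of all probe sets, and the lower ends of the 95% intervals in WT mice were −0.31 and −0.33.

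Slco2a1 encodes the prostaglandin transporter, which is known from endothelial cells as well as from hepatocytes. None of its 4 probe sets was called. In WT mice the log2 fold changes ran from −0.26 to 0.11 (adjusted p 0.376 to 0.603) and in PXR-KO mice from −0.37 to 0.04 (adjusted p 0.177 to 0.863). The lowest fold change, that of 1450032_at in PXR-KO mice, was −0.37 ± 0.14 (limma adjusted p = 0.177). There, CMP013 animals had −0.63, −0.39, −0.13, −0.62 and −0.11 and vehicle animals −0.32, 0.13, 0.12, 0.08 and −0.04, and PXR-KO vehicle 1 lay within the CMP013 range.

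**Figure D4:**
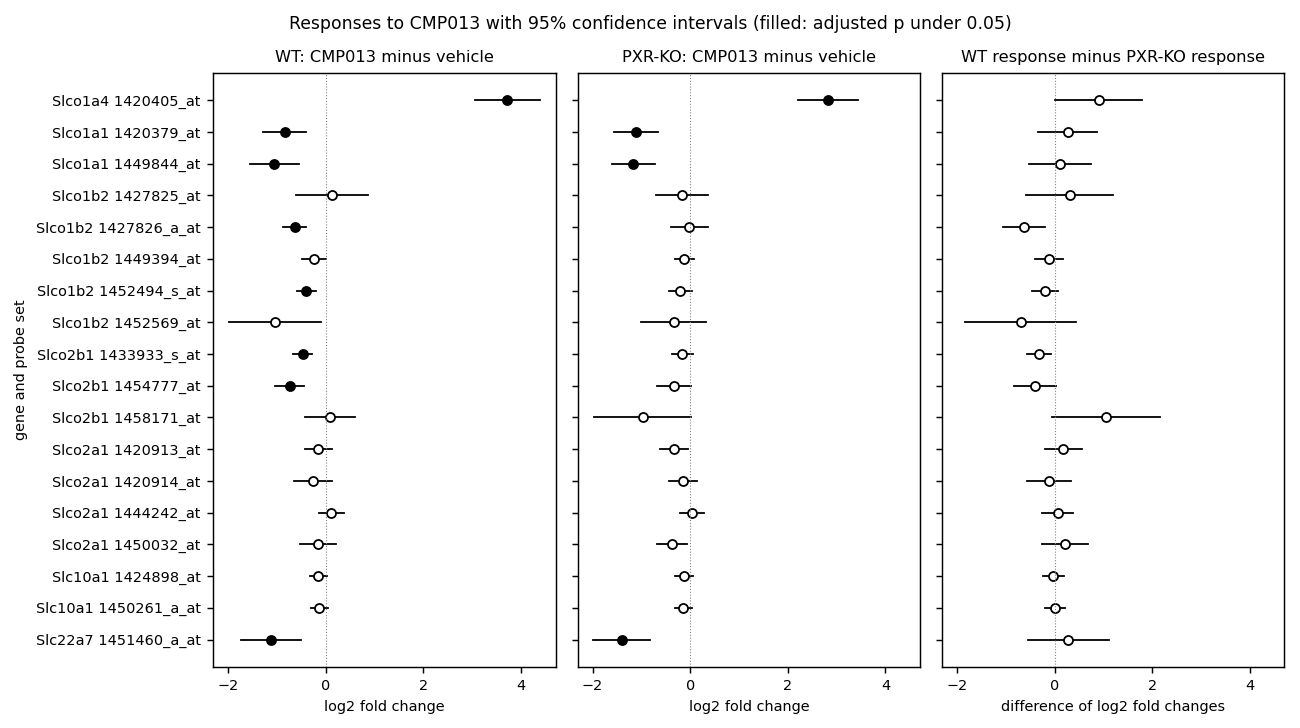
Log2 fold change with its 95% confidence interval (x axis) for each of the 18 probe sets (rows) in WT mice, in PXR-KO mice and as the difference between them (WT minus PXR-KO). Filled points passed an adjusted p of 0.05, 8 in WT, 4 in PXR-KO mice and none of the differences, with Slco1a4 the far right point of either genotype.

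Among markers of liver cell types, called falls with CMP013 in WT mice were most frequent for sinusoidal endothelial and stellate cells. Of all probe sets, 6.72% were called lower and 7.67% higher in WT mice, and 1.54% lower and 2.12% higher in PXR-KO mice. Of 12 measured markers of sinusoidal endothelial cells, 9 were lower and none higher in WT mice, and 2 were lower and 2 higher in PXR-KO mice. Their mean log2 ratio was −0.58 to −0.40 in WT CMP013 and −0.11 to 0.07 in WT vehicle animals, and −0.26 to 0.02 in PXR-KO CMP013 and −0.05 to 0.03 in PXR-KO vehicle animals. Of 8 stellate cell markers 4 were lower in WT and none called in PXR-KO mice, with means of −0.64 to −0.39 in WT CMP013 and −0.17 to 0.13 in WT vehicle animals. Of 11 macrophage markers 3 were lower in WT and 2 higher in PXR-KO mice, with means of 0.31 to 0.66 in PXR-KO CMP013 and −0.54 to 0.60 in PXR-KO vehicle animals. Those 2 were Marco (4.22 ± 0.64) and Cd68 (1.11 ± 0.13), named after their values were seen. The other 9 were not called in PXR-KO mice, and the median log2 fold change of the 11 there was 0.24. Of 10 vascular endothelial markers 2 were lower in WT and none called in PXR-KO mice. None of 5 cholangiocyte markers was called in either genotype.

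Of 10 measured hepatocyte markers 1, Pck1 of gluconeogenesis, was lower in WT mice and none was called in PXR-KO mice, Pck1 being named after its values were seen. Their mean log2 ratio was −0.20 to −0.04 in WT CMP013 and −0.07 to 0.08 in WT vehicle animals, and −0.15 to −0.05 in PXR-KO CMP013 and −0.09 to 0.09 in PXR-KO vehicle animals. In whole liver RNA, fewer cells of a type and less RNA per cell cannot be told apart. The part of the cell type markers in the falls of Slco1b2 and Slco2b1 was not tested.

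Related lists gave the setting of these responses. The counts of each list stand beside 7.67% of all probe sets called higher and 6.72% called lower in WT mice. In PXR-KO mice 2.12% of all probe sets were called higher and 1.54% lower. In a list of other solute carriers, not all of them uptake carriers of the sinusoidal membrane, 13 of 17 were measured, 2 were higher and 2 lower in WT mice, and 1 was lower in PXR-KO mice. Slc22a18, of the same family as Slc22a7, rose by 1.33 ± 0.095 in WT mice (limma adjusted p = 3.74e-05) and had −0.03 ± 0.12 in PXR-KO mice. Slc29a1, a nucleoside carrier, fell by 0.57 ± 0.10 in WT mice and had −0.45 ± 0.16 in PXR-KO mice (limma adjusted p = 0.158). Its 2 responses differed by −0.12 ± 0.19 (limma interaction adjusted p = 0.743). Slc47a1, which encodes the canalicular exporter MATE1, fell by 0.32 ± 0.074 in WT mice and had −0.03 ± 0.084 in PXR-KO mice. Slc22a5, the carnitine carrier, rose by 0.56 ± 0.14 in WT mice and had 0.17 ± 0.19 in PXR-KO mice. Neither Slc47a1 nor Slc22a5 passed the interaction test. Slc22a30, named after its values were seen, was the carrier that fell in PXR-KO mice, by 0.86 ± 0.19 log2 units. In WT mice Slc22a30 had −0.08 ± 0.12, and its 2 responses differed by 0.78 ± 0.22 (limma interaction adjusted p = 0.0299).

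In a list of 14 genes of efflux pumps and related proteins, not all of them exporters, 3 were higher and 3 lower in WT mice. In PXR-KO mice 1 was higher and 1 lower. Atp8b1, which is not an exporter and was named after its values were seen, was among the 3 lower in WT mice. Its log2 fold change there was −0.84 ± 0.18 (limma adjusted p = 0.0116), with 0.01 ± 0.095 in PXR-KO mice. Abcb1a, the drug pump P-glycoprotein, rose by 1.66 ± 0.20 in WT (limma adjusted p = 0.000727) and by 0.90 ± 0.17 in PXR-KO mice (adjusted p = 0.0201). Abcc3, a basolateral pump of conjugates, rose by 1.28 ± 0.099 in WT mice and had 0.42 ± 0.11 in PXR-KO mice (adjusted p = 0.0683). Abcc2, the canalicular pump of bilirubin conjugates, rose by 0.94 ± 0.095 in WT mice and had 0.11 ± 0.091 in PXR-KO mice, and Abcc6 fell by 0.76 ± 0.088 in WT mice and had −0.23 ± 0.11 in PXR-KO mice.

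Of 15 measured transcription factors known to act on carrier genes, none was higher and 8 were lower in WT mice, and 3 were higher and 1 lower in PXR-KO mice. Stat5b, which carries the growth hormone signal, fell by 0.75 ± 0.11 in WT (limma adjusted p = 0.00167) and fell by 0.43 ± 0.099 in PXR-KO mice (adjusted p = 0.0432). Nr1i2, which encodes PXR itself and was named after its values were seen, was among those higher in PXR-KO mice (0.46 ± 0.091, limma adjusted p = 0.0250), and the sources used here do not say whether its probe set lies in the deleted part. Nr1i3, the receptor CAR, fell by 0.70 ± 0.18 in WT and rose by 1.61 ± 0.15 in PXR-KO mice. Ppara, the fatty acid receptor, fell by 0.48 ± 0.11 and Nr3c1, the glucocorticoid receptor, fell by 0.42 ± 0.089 in WT mice. In PXR-KO mice they had 0.12 ± 0.095 and −0.08 ± 0.10.

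Of 11 measured genes listed as higher in male liver and dependent on growth hormone, 1 was higher and 5 lower in WT mice and 4 were lower in PXR-KO mice. Slco1a1 is known for the same pattern. All mice here were male, so whether each listed gene has a sex difference was not tested. Elovl3, a fatty acid elongase, had a log2 fold change of −1.92 ± 0.42 in WT mice (adjusted p = 0.0141) and one of −3.38 ± 0.34 in PXR-KO mice (adjusted p = 0.00160), and Ugt2b38, a glucuronosyltransferase, had −2.43 ± 0.56 in WT mice and −3.16 ± 0.41 in PXR-KO mice (adjusted p = 0.0171 and 0.00482). Igf1, the growth factor, fell by 0.80 ± 0.092 in WT mice (adjusted p = 0.000485) and had −0.0047 ± 0.076 in PXR-KO mice. C8a of complement fell by 0.67 ± 0.11 in WT mice and had 0.17 ± 0.13 in PXR-KO mice.

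Of 11 measured genes listed as higher in female liver, which was not tested in these male mice either, 2 were higher in WT mice. In PXR-KO mice 4 were higher, and none was lower in either genotype. Sult1e1, the estrogen sulfotransferase, rose by 4.17 ± 0.62 in PXR-KO mice (limma adjusted p = 0.00817) and had 1.88 ± 0.57 in WT mice (adjusted p = 0.0538). Fmo2, a monooxygenase, rose by 1.86 ± 0.26 in PXR-KO mice and had 0.10 ± 0.26 in WT mice. Cyp3a44 rose by 1.69 ± 0.15 and Sult3a1 by 2.06 ± 0.51 in WT mice, with −0.06 ± 0.14 and −0.39 ± 0.38 in PXR-KO mice.

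Among 14 measured target genes of PXR and CAR, 13 were higher and none lower in WT mice, and 3 were higher and 3 lower in PXR-KO mice. Cyp2c55 rose by 5.90 ± 0.097 in WT mice and fell by 3.92 ± 0.51 in PXR-KO mice, and Cyp2b10 rose by 6.47 ± 0.17 in WT and fell by 1.33 ± 0.29 in PXR-KO mice. Gstm3 and Gstm2, glutathione transferases, rose by 3.44 ± 0.13 and 2.37 ± 0.097 in WT mice and had 0.24 ± 0.29 and 0.11 ± 0.19 in PXR-KO mice. The interaction test gave a higher response in WT than in PXR-KO mice for 10 of these 14 genes, beside 5.47% of all probe sets. The other 4, Gsta2, Cyp3a13, Abcb1a and Alas1, did not pass it, and neither did Slco1a4. Of these 4, Gsta2, Cyp3a13 and Alas1 were named after their values were seen. Like Slco1a4, Gsta2, Cyp3a13 and Abcb1a were called higher in each genotype. Their log2 fold changes were 1.52, 0.39 and 1.66 in WT mice. In PXR-KO mice they were 1.48, 0.64 and 0.90. Not passing this test does not show that 2 responses are equal.

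**Figure D5:**
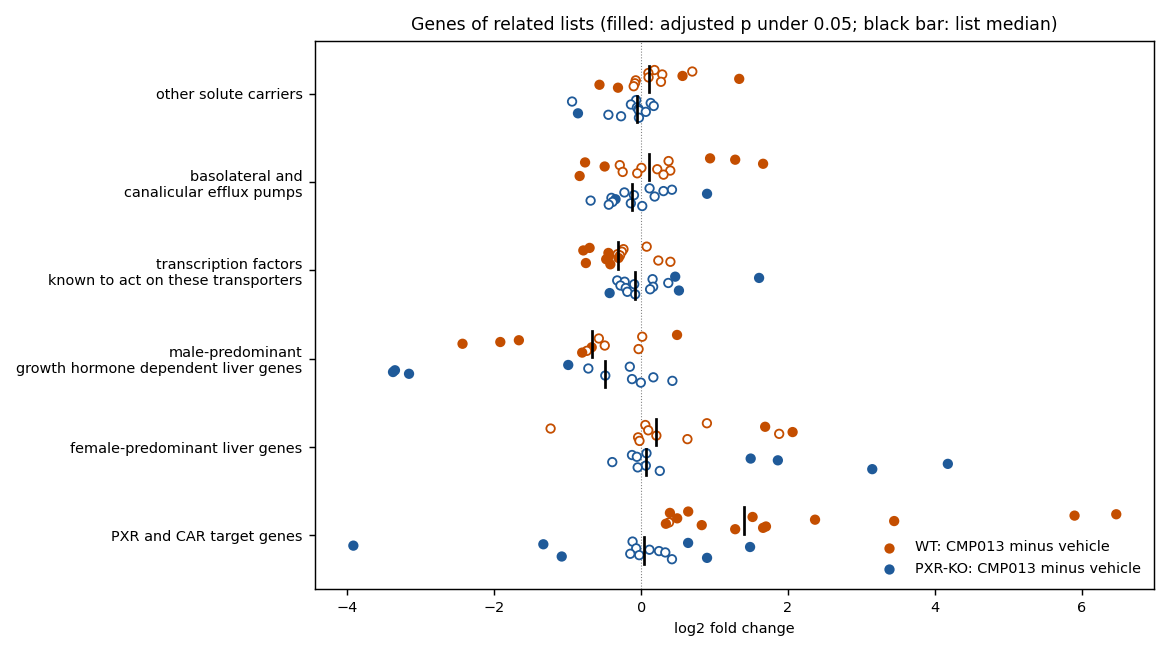
Log2 fold change of CMP013 against vehicle (x axis) for the measured genes of 6 related lists (rows), in WT mice (orange, upper) and PXR-KO mice (blue, lower), with a black bar at the median of each list. Filled points passed an adjusted p of 0.05, 13 of 14 PXR and CAR target genes in WT mice and 6 of 14 in PXR-KO mice among them.

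The genes whose log2 ratios ran closest to each member over the 20 arrays were found by the root mean square difference of the log2 ratios, with 1 probe set a gene. For Slco1a4 these were Orm3, an acute phase protein (0.590), Acnat2 (0.807) and Ttc39a (0.959). Orm3 rose by 3.14 in WT and by 2.48 log2 units in PXR-KO mice. For Slco1a1 they were Haao of tryptophan breakdown (0.215), Wwox (0.233) and Tsc22d1 (0.235), and for Slc22a7 Lama3 (0.333), Sucnr1, the succinate receptor (0.341), and Serpina9 (0.369).

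For the remaining members the measure of likeness was 0.0733 for Fbxl4, 0.0859 for Sephs2 and 0.0863 for Ak3 beside Slco1b2, and 0.167 for Ptms, 0.169 for Pipox and 0.173 for Acsm3 beside Slco2b1. It was 0.110 for Gmcl1, 0.119 for Cyp2a12 and 0.122 for Arpc2 beside Slco2a1, and 0.0712 for Ddt, 0.0740 for Acadvl and 0.0746 for Mocs2 beside Slc10a1. These distances are descriptions and shrink with the spread of the member itself. For members with several probe sets the one used was 1420379_at for Slco1a1, 1449394_at for Slco1b2, 1444242_at for Slco2a1, 1454777_at for Slco2b1 and 1424898_at for Slc10a1. Because 1449394_at was called in neither genotype, the genes near Slco1b2 do not describe its falls by 1427826_a_at and 1452494_s_at.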

How the data were processed

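Liver RNA of 20 mice was hybridized by the authors to Affymetrix mouse genome arrays, 1 per animal. The authors computed the deposited log10 ratios in Rosetta Resolver 7.2, dividing each animal by the mean of the 5 vehicle animals of its genotype. Without intensities the signal over background is unknown, and dim probe sets were kept. Because vehicle animals define the ratios, the number of arrays limits precision and neither the knockout effect under vehicle nor the deleted gene as a test of the labels was analysed here.

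Log10 ratios were put on the log2 scale and tested with limma 3.58.1 (lmFit and eBayes) in R 4.3.3, with Benjamini-Hochberg adjustment over 45037 probe sets and a limit of 0.05. Each genotype was fitted on its own 10 arrays (CMP013 minus vehicle), and all 20 arrays entered the interaction test (WT minus PXR-KO). Single probe sets were also tested by two-sided exact permutation of the 10 animals. The software also included numpy 2.4.6, pandas 2.3.3 and matplotlib 3.10.9. The working of the tests was checked on simulated data with known changes in WT CMP013 arrays. The simulated noise was normal, independent between probe sets and of equal spread in all groups. The check therefore does not cover correlated probe sets or the unequal spread of the real arrays.

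Probe sets were named from the platform annotation (34945 with 1 gene, 932 with several, 9160 with none). Listed genes were each read from a probe set naming no other gene, unmarked by _s_ or _x_ first, then with the smallest SD in the vehicle groups. Named genes were all members, the 3 nearest genes of each member, and up to 4 genes per list with the smallest adjusted p in either genotype. The members, lists and alternatives were chosen with earlier results of these data known. Animals are samples of 1 group by their labels, and replicate numbers did not pair them (correlations of same-numbered deviations −0.24 to 0.07). Alternatives were a common array median, quantile normalization of the ratios, array weights, a block for the replicate number, limma with its trend and robust options, one fit of all 4 groups, leaving out 4 vehicle animals, a 1.25-fold threshold, probe sets of 1 gene alone, the most changed probe set for each listed gene, and omission of single animals. Gene order and promoter windows came from RefSeq (GRCm38.p6).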

Additional observations from a re-analysis of the deposited data

Results flagged for a closer look

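In 4 of the 72 groups of 5 values formed by the member probe sets, 1 animal stood far from the other 4, where chance gives about 1 in 20 groups. WT CMP013 2 had a log2 ratio of −1.90 for Slco1a1 (1449844_at), with the others between −1.03 and −0.67, and without it the fall in WT mice was −0.84 (limma adjusted p = 0.00522). WT vehicle 2 had −1.45 for Slco1a4 (1420405_at), with the others between −0.08 and 0.25. PXR-KO vehicle 1 had −0.28 for Slco2a1 (1420913_at), with the others between −0.0064 and 0.10. PXR-KO vehicle 5 had −0.27 for Slco2b1 (1454777_at), with the others between −0.00020 and 0.11.

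Among the genes named beside the members, some had responses that differed between WT and PXR-KO mice by the limma interaction test (adjusted p under 0.05 over all probe sets). This difference (WT minus PXR-KO, log2 units) was 9.82 for Cyp2c55, 7.80 for Cyp2b10, 3.20 for Gstm3 and 2.25 for Gstm2. It was 0.86 for Abcc3, 0.82 for Abcc2 and −0.54 for Abcc6 among the pumps, and −0.85 for Atp8b1 of the same list. Among the other solute carriers it was 1.37 for Slc22a18, 1.64 for Slco1a6 and 0.78 for Slc22a30. It was 1.75 for Cyp3a44, −1.76 for Fmo2 and 2.46 for Sult3a1 among genes listed as higher in female liver. Among those listed as higher in male liver it was −0.80 for Igf1 and −0.84 for C8a. It was −2.31 for Nr1i3 and −0.60 for Ppara among the transcription factors, and −0.62 for Acsm3, a gene near Slco2b1 in its ratios. Of the cell type markers named above, Marco had −4.11, Cd68 −0.92 and Pck1 −0.54.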

How the results depend on the processing

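Ratios without intensities give no signal over background, and probe cross-binding was not tested. Of the 18 member probe sets, 8 were called in WT, 4 in PXR-KO mice and none for the difference. Quantile normalization of the ratios gave 2, 3 and 0 (all probe sets 1752, 498 and 1231, against 6480, 1645 and 4936). Without the 4 vehicle animals, 4, 1 and 0 were called (all 3308, 363 and 2544): Slco1a4, Slco1b2 (1427826_a_at) and 1433933_s_at and 1454777_at of Slco2b1 in WT, and Slco1a4 in PXR-KO mice. With trend and robust variances, limma called 0 of all probe sets in PXR-KO mice (8806 at an unadjusted p under 0.05, smallest adjusted p 0.0536, which Slco1a4 had), hence 0 members there. All 4 groups in one fit called 3049 in PXR-KO mice. With 1 animal left out, 7 to 8, 3 to 4 and 0 to 1 members were called (all probe sets in PXR-KO mice 620 to 1728). The fall of 1454777_at and the rise of Slco1a4 in WT mice were called in every setting run. With the most changed probe set of each listed gene, 7 against 6 genes listed as higher in male liver were called in WT mice. So were 5 against 4 other solute carriers and 7 against 8 transcription factors. In PXR-KO mice 5 against 6 PXR and CAR targets were called. The causes of these changes were not tested.

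With a replicate block, 6, 1 and 0 members were called (all 3026, 119 and 2497). The numbers are no pairs: no pair of same-numbered animals had deviations correlated over 0.1, and no animal correlated best with its own number.

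Sign changes touched uncalled values alone. Quantile normalization turned the difference of Slc10a1 1424898_at to 0.011. Without the 4 vehicle animals that difference was 0.017, those of Slco2a1 1420913_at and 1450032_at were −0.026 and −0.037, and 1444242_at was −0.041 in PXR-KO mice. Array weights gave 0.024 for the difference of 1420914_at and −0.015 for 1444242_at in PXR-KO mice. With 1 animal left out, differences ranged from −0.065 to 0.023 for Slc10a1 1424898_at, −0.025 to 0.034 for 1450261_a_at, −0.061 to 0.32 for Slco1a1 1449844_at and −0.23 to 0.0077 for Slco2a1 1420914_at. PXR-KO values ranged from −0.12 to 0.084 for Slco1b2 1427826_a_at and −0.013 to 0.11 for Slco2a1 1444242_at, and the WT value of Slco2b1 1458171_at from −0.043 to 0.26.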
